A study of Mus musculus with 884 samples.

Results

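The regions described here are 80-kb stretches of mouse autosome that naive embryonic stem cells had copied by mid S phase far more often than day 7 cells, with the larger part of that delay already present at days 3 and 4. They were chosen from the authors' table of replicated and unreplicated calls, in cells that had copied 40 to 70% of the autosomal genome (mid-S cells below). The share of a bin was the percentage of mid-S cells with a call that had copied it. A bin was taken when its share at day 7 (d7) was at least 30 percentage points below that at day 0 (d0), and when at least 50% of that difference had been reached in the pooled d3 and d4 cells. In all, 1009 bins (80.72 Mb) met both conditions, 3.40% of the 29684 bins tested of 30890 in the table. They made up 44.1% of the 2290 bins (7.71% of those tested) that lost at least 30 points by d7. They are called fast-loss bins, and the other 1281 slow-loss bins.

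In mammalian cells, stretches of chromosome up to megabases long are copied as units at set times of S phase. Early-copied stretches tend to be gene-rich, open and in the nuclear interior, and late-copied stretches tend to be gene-poor, compact and near the nuclear lamina. When stem cells leave the naive state, part of this program is rewritten, with some domains moving later and others earlier. No genome or gene annotation of the files' build (mm9) was used here, so regions are named by position, and neither genes nor sequences are given for them.

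The assay was single-cell Repli-seq, in which the DNA of 1 sorted cell is amplified and sequenced, and bins present in extra copy are called replicated. The cells were female CBMS1 embryonic stem cells (strain CBA/MsM) in 2i/LIF medium, the naive d0 state. The same line was followed at d2, after the epiblast-like stage, and then as floating aggregates at d3, d4, d5, d6 and d7, when the labels describe neurectoderm. Female epiblast stem cells (EpiSC, strain C57BL6) in Activin/FGF medium were a separate primed line, in which strain and cell state cannot be told apart. The table held 884 cells, of which 805 had been sorted from S phase, 72 from G1, and 7 G1 cells had labels that disagreed on their day and were set aside.

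There were 293 mid-S cells. They were 59 of d0, 35 of d2, 13 of d3 and 18 of d4, then 20 of d5 and 21 of d6, and 26 EpiSC. At d7 there were 66 from the present series and 35 from an earlier one, pooled here. Between 26813 and 29849 bins were called in each (median 29683), and mean replication scores, the share of autosomal bins copied in a cell, lay between 52.3% at d2 and 57.1% in EpiSC. The labels name no separate cultures, so each day and the EpiSC count as 1 sample. No test was therefore run, and the exact intervals given below cover the counting of cells only. The d0, d3, d4 and d7 mid-S cells chose the bins, so their values describe that choice and support nothing further. All comparisons with d0 share the same d0 cells, and part of a fall from d0 on any day was fixed by choosing bins for a high share in those cells.

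Among mid-S cells, 3 at d0, 1 at d4 and 3 at d7 did not follow the genome-wide order of replication, with areas under the curve against the mean profile below 0.8. Without them the mean share of fast-loss bins was 74.6% at d0, 30.2% at d4 and 27.7% at d7. The earlier series had also supplied 50 of the d0 cells. The bins' mean share was 28.8% in the present and 27.1% in the earlier d7 cells, and 75.3% in 9 present and 74.7% in 50 earlier d0 cells. The cells that did not follow the order were all of the present series. Without them its share was 28.1% in 63 d7 cells and 73.9% in 6 d0 cells.

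In the cells that chose them, the fast-loss bins had a mean share of 74.9% at d0, 44.4% at d3, 32.4% at d4 and 28.2% at d7. Per cell, the percentage of fast-loss bins copied had a low, median and high of 40.9%, 75.9% and 95.8% at d0. At d3 these were 19.2%, 39% and 74.6%, at d4 6.65%, 28.6% and 76.6%, and at d7 2.85%, 28.9% and 68.8%. Single cells of d7 and d0 thus overlapped, over a range of scores that was nearly the same. At d7, 395 of the bins were copied in at most 20% of cells, a level that was not counted over all bins. At d0, 480 (47.6%) were copied in at least 80% of cells, against 59.8% of slow-loss bins. The 97 bins just inside the size limit averaged 31.4% at d7 and 62.2% at d0, and those just outside it that met the other condition averaged 41.5% at d7 and 70.5% at d0. The 96 bins just inside the limit on speed averaged 51.8% in pooled d3 and d4 cells, and the 98 just outside it 56.4%. Of the bins, 32 were called in under 50% of d3 cells and are included in the d3 mean. In 223 bins the pooled d3 and d4 share was already below that of d7.

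**Figure D1:**
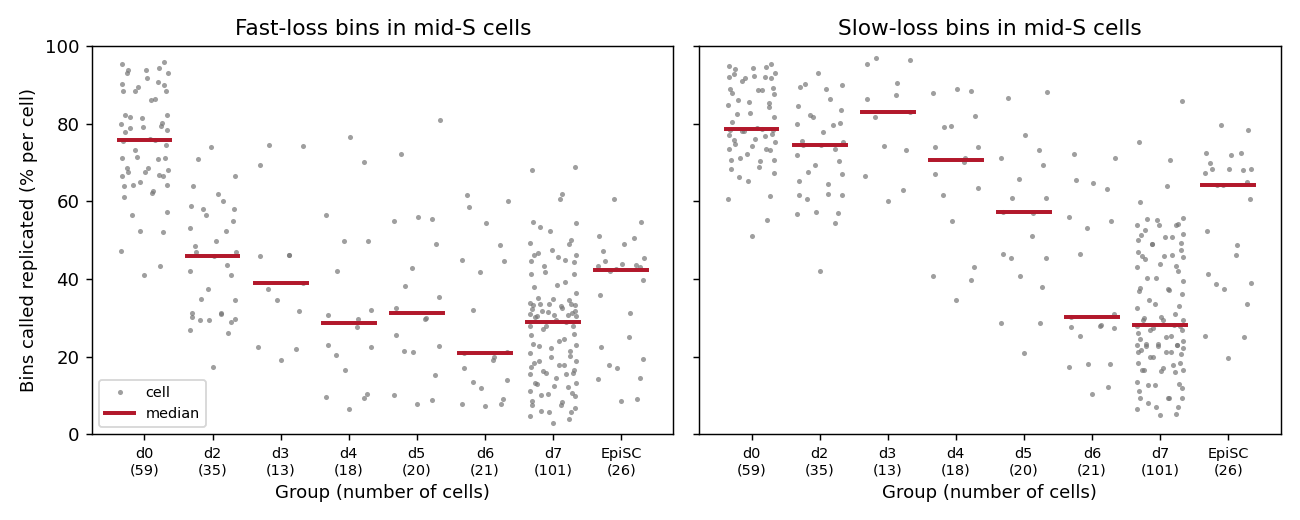
Percentage of fast-loss bins (left) and slow-loss bins (right) called replicated in each mid-S cell, by group, with 1 point per cell, a red line at the median and the number of cells under each group. The median of fast-loss bins was 45.9% at d2 and 75.9% at d0, and that of slow-loss bins 74.4% at d2 and 78.5% at d0.

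Much of the delay was present at d2, in cells the choice did not use. The mean share of fast-loss bins was 45.0% at d2, against 74.9% at d0. Of 35 d2 cells, the lowest copied 17.3% of the bins, the median cell 45.9% and the highest 73.9%. The d2 share was at least 30 points below d0 in 489 of the 1008 bins with a d2 share (48.5%), against 6.98% of all bins tested. It was below d0 by any amount in 952 of the bins, against 15725 of all 29680 bins with a d2 share. It was at least 30 points above d0 in 0 of them, against 456 of all bins, but most had too high a d0 share to rise so far. Slow-loss bins, which were chosen on the same d0 and d7 cells and set apart by their pooled d3 and d4 share, averaged 72.9% at d2 and 79.8% at d0. Of them, 7.96% were at least 30 points below d0 at d2.

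The d2 cells had lower scores than the d0 cells (means of 52.3% at d2 and 56.3% at d0), and shares rise with the score on average. When each d2 cell was paired with the d0 cell and the d7 cell nearest to it in score, the fast-loss bins averaged 69.8% at d0, 45.0% at d2 and 20.7% at d7. On this scale d2 had covered 50.6% of the distance to d7, against 64.1% without matching. The slow-loss bins had covered 6.01% of theirs with matching. In the narrower range of scores from 50 to 60%, the 14 d2 cells copied 42.1 to 63.8% of the fast-loss bins (median 51.2%), and the 29 d0 cells 62.1 to 82.2% (median 71.4%). The groups overlapped only between 62.1% and 63.8%.

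At d5 the bins averaged 35.4% and at d6 29.4%, both in cells the choice did not use. Low, median and high cells copied 7.74%, 31.3% and 80.9% of them at d5, and 7.21%, 21.1% and 61.7% at d6. Thus the median cell fell below that of d2 on both days, while the highest d5 cell lay above the d0 median. The share was at least 30 points below d0 in 679 of 1009 bins (67.3%) at d5, against 6.13% of all bins, and in 825 (81.8%) at d6, against 8.79%. Matched in score, the bins had covered 83.8% of the distance from d0 to d7 at d5 and 88% at d6. Slow-loss bins had covered 50.1% at d5 and 79.3% at d6, so the fast-loss bins were still ahead of them at d6 on this scale.

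Epiblast stem cells, a separate line in the primed state, also copied the fast-loss bins later than d0 cells did. Their mean share was 35.2% in EpiSC and 74.9% at d0. The 26 EpiSC ran from 8.48% to 60.6%, with a median of 42.2%. In EpiSC, 639 of 1009 bins (63.3%) were at least 30 points below d0, against 6.33% of all bins. None of the 1009 was at least 30 points above, against 2187 of all 29682 bins, but most had too high a d0 share to rise so far. Of the slow-loss bins, 462 (36.1%) were at least 30 points below d0. Of the fast-loss bins, 385 were copied in at most 20% of EpiSC and 54 in at least 80%, levels that were not counted over all bins. Matched in score, EpiSC had covered 85.5% of the distance from d0 to d7 in fast-loss bins and 52% in slow-loss bins.

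Cells outside mid S had no part in the choice either. In early S (scores of 10 to 40%), the mean share of fast-loss bins was 5.71% in 31 d7 cells and 16.5% in 48 d0 cells, while all bins averaged 28.0% at d7 and 26.7% at d0. Among early S cells the fast-loss bins averaged 10.3% at d2, 4.36% at d6 and 4.84% in EpiSC. In early S, 120 of 1005 bins (11.9%) were at least 30 points lower at d7 than at d0, against 4.99% of all bins. Slow-loss bins had a larger difference there, with a mean share of 8.93% at d7 and 29.9% at d0, and 29.4% of them were at least 30 points lower at d7. Few fast-loss bins had been copied in early S even at d0, so there was little room for a fall. In late S (scores of 70 to 90%), the mean share was 72.1% in 49 d7 cells and 96.3% in 50 d0 cells, with all bins at 79.4% at d7 and 77.9% at d0. The late S ranges were 48.9 to 93.4% at d7 and 88.8 to 99.8% at d0, which overlapped at their ends. There, 294 of 1004 bins (29.3%) were at least 30 points lower at d7, against 4.12% of all bins and 27.3% of slow-loss bins. At d2 the late S cells averaged 87.5%, and in EpiSC 75.5%. At scores above 90%, where little of the genome was left to copy, the share was 94.5% in 12 d7 cells and 99.8% in 3 d0 cells.

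**Figure D2:**
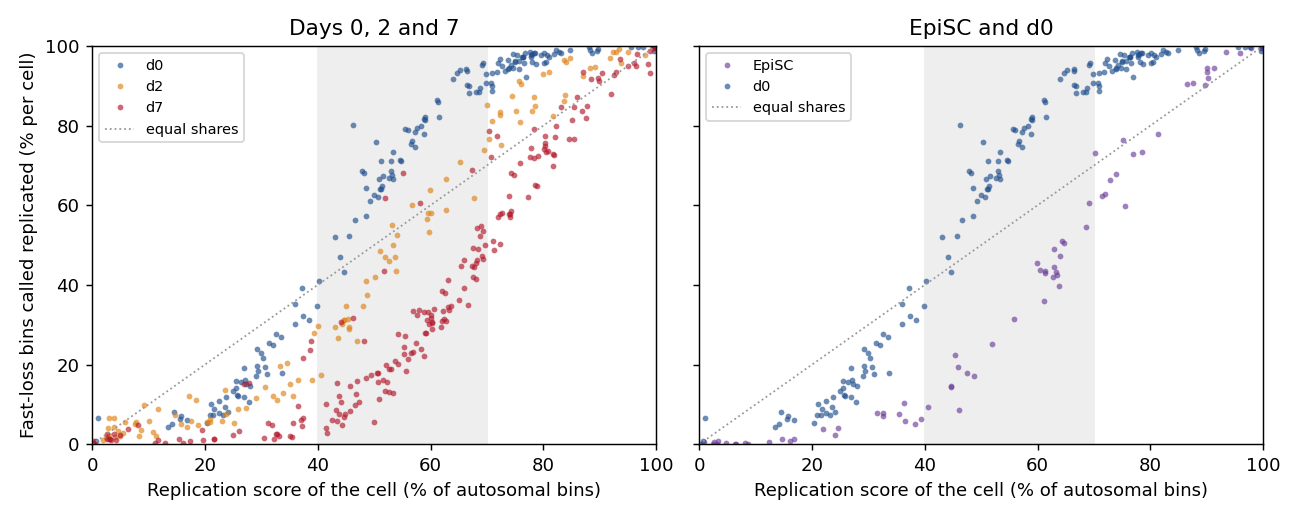
Percentage of fast-loss bins called replicated in each S-phase cell against the cell's replication score, for d0, d2 and d7 (left) and for EpiSC and d0 (right), with 1 point per cell. The grey band marks mid S and the dotted line equal shares. In late S the d7 cells lie between 48.9% and 93.4%, and the d0 cells between 88.8% and 99.8%.

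A midpoint was fitted for each bin, the score at which 50% of cells had copied it, from all cells with scores of 5 to 95%. The median midpoint of fast-loss bins was 45% at d0, 55% at d2 and 56% at d3, followed by 61% at d4, 62% at d5 and 64% at d6, and 66% at d7. In EpiSC it was 65%. The midpoints of slow-loss bins were 39%, 38%, 35%, 45%, 52%, 60% and 64% on the same days, and 53% in EpiSC. All bins had a median of 50% in every group. Fast-loss bins were thus copied just before the middle of S phase at d0, later than slow-loss bins, and after the middle from d2 on. At d7 70.1% of them had a midpoint over 60%, against 4.76% at d0. The mid-S cells that chose the bins are among the cells fitted, so the d0 and d7 values are a description.

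The fast-loss bins were split into 2 sets at a fall of 30 points at d2, close to their median difference of -29.1 points. Whether the sets follow distinct courses was not tested. The 489 bins at least 30 points below d0 at d2 averaged 72.9% at d0, 26.3% at d2 and 34.8% at d3, with 27.6% at d4, 30.8% at d5 and 25.1% at d6, and 25.9% at d7. Chosen for a low d2 share, they were as low at d2 as at d7. The other 519 averaged 76.8%, 62.5%, 53.6%, 37%, 39.7%, 33.3% and 30.4% on these days. The d3 and d4 values are part of the choice of the bins. In EpiSC the 2 sets averaged 30.8% and 39.4%. The split was made on mid-S cells, and late S cells gave the same order. In late S, the 489 bins averaged 80.5% at d2 and 96.1% at d0, and the 519 bins 94.1% at d2 and 96.5% at d0. In early S, the 489 bins averaged 3.75% at d2 and 12.8% at d0, and the 519 bins 16.4% at d2 and 20.01% at d0.

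Fast-loss bins lay side by side more than alone. They formed 311 runs, of which 34.4% were single bins. The 74 runs of at least 5 bins held 554 of the 1009 (54.9%), with a median length of 480 kb and a longest of 1760 kb. These 74 regions had a median share of 80.1% at d0, 40.5% at d2 and 30.7% at d4, then 33% at d5, 31.5% at d6 and 28.3% at d7, and 31.7% in EpiSC. All 74 were lower at d2 than at d0, 42 of them by at least 30 points. At d2, 56 had covered at least 50% of their distance from d0 to d7, 18 had reached or passed the d7 share, and 6 had covered under 25%. In 28 regions the share was lower in EpiSC than at d7.

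**Figure D3:**
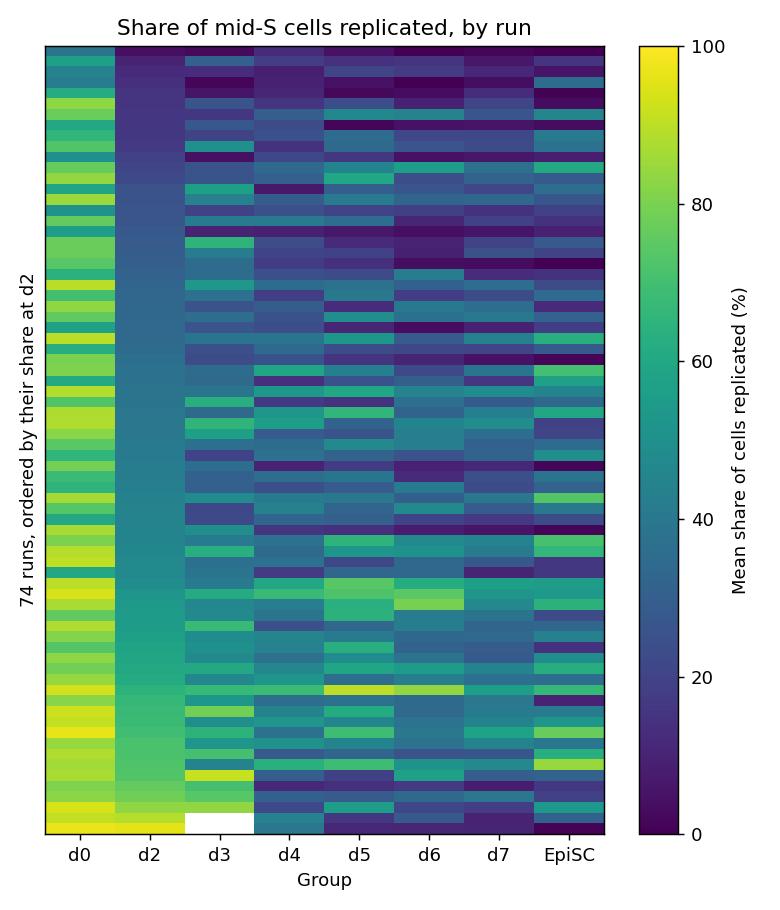
Mean share of mid-S cells that had copied each of the 74 regions of at least 5 adjacent fast-loss bins, with 1 row per region ordered by its d2 share and 1 column per group; white marks a group in which no bin of the region was called in 50% of cells. At d0, 37 regions had a share of at least 80%, and at d2 3.

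The region with the largest fall at d2 was also the second longest, chr15:50080001-51600000 (19 bins, mm9). A cell counted as having copied a region when more than 50% of its called bins there were copied. By this count the chr15 region was copied in 54 of 59 cells at d0, 3 of 35 at d2 and 3 of 13 at d3, and later in 1 of 18 at d4, 3 of 20 at d5 and 1 of 21 at d6, and in 17 cells (16.8%) at d7. The exact 95% intervals were 1.80 to 23.1% at d2 and 81.3 to 97.2% at d0, for a region picked for its large difference. In EpiSC it was copied in 0 of 26 cells, which allows a share of up to 11.5% (3 cells) and has an exact upper limit of 13.2%, as do the other regions with 0 of 26 below. On its left the flanking 400 kb were late already (8.32% at d7 and 20.3% at d0), and on its right they averaged 37.8% at d7 and 90.8% at d0.

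Other regions fell nearly as far at d2 and had higher counts on later days. chr15:66480001-67360000 was copied in 56 of 59 cells at d0, 6 of 35 at d2, 11 of 20 at d5 and 6 of 21 at d6, and in 33.7% at d7. Its d2 interval (6.56 to 33.6%) and its d5 interval (31.5 to 76.9%) overlapped at their ends. chr6:7200001-8080000 was copied in 49 of 59 cells at d0, 5 of 35 at d2, 9 of 20 at d5 and 10 of 21 at d6, in 24.8% at d7, and in 13 of 26 EpiSC. At chr6:137600001-138080000 the counts were 52 of 59 at d0, 4 of 35 at d2 and 29 cells (28.7%) at d7. In these 3 regions the mean share at d2 (22.1%, 15.8% and 25.7%) was the lowest of all days.

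At the other end, some regions kept high shares through d2 and d3 and had low ones at d4. chr17:21840001-22320000 was copied in 55 of 59 cells at d0, 30 of 35 at d2 and 10 of 13 at d3, against 3 of 18 at d4, 10 of 20 at d5, 5 of 21 at d6 and 18.8% at d7, so the d5 count was again higher. chr19:18400001-19040000 had 50 of 59 at d0, 27 of 35 at d2 and 10 of 13 at d3, against 4 of 18 at d4, 6 of 20 at d5, 7 of 21 at d6 and 40.6% at d7. None of the bins of these 2 regions was called replicated in the 10 G1 cells of d2, the 6 of d3 or the 7 of d4. The longest region of all, chr12:19120001-20880000 (22 bins), was copied in 50 of 58 cells at d0, 28 of 35 at d2 and 11 of 12 at d3. It was copied in 1 of 18 cells at d4, 2 of 20 at d5 and 4 of 21 at d6, and in 4 cells (3.96%) at d7. Its exact intervals were 61.5 to 99.8% at d3 and 0.141 to 27.3% at d4. In G1 cells of d3, however, a median of 32% of the bins of this region were called replicated (lowest 0%, highest 100%), so its d3 count stands on a high background. In G1 cells the median was 0% at d2 and 0% at d4. The fourth of the regions with the smallest fall at d2, chr2:149520001-149920000, had a lower start, with a mean share of 59.7% at d0, 47.4% at d2 and 38.5% at d3, then 17.8% at d4 and 10.5% at d7. The regions chr2:177200001-177680000 and chr13:65600001-66160000 had no share at d3, since no bin of theirs was called in 50% of the 13 cells, and so fell outside the naming rule. Their shares were 88.9% and 95.9% at d2, against 90.9% and 97% at d0, and 9.93% and 10.2% at d7. Both had a high median in G1 cells of d3 as well (100% and 67.9%).

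The start of chromosome 12 held 57 fast-loss bins in its first 30 Mb, between 10800001 and 25040000. Over those called in at least 50% of cells, they averaged 78.8% at d0, 65.4% at d2 and 69.8% at d3, against 20.01% at d4, 19.5% at d5 and 28.1% at d6, and 17.6% at d7. In EpiSC they averaged 20.8%. In the 6 G1 cells of d3, however, 6.25 to 72.7% of these bins were called replicated (median 36.8%), while the other 952 fast-loss bins had a median of 1.47%. The median in G1 cells was 1.80% at d2, 0% at d4 and 0% at d7, and 1 of 16 G1 cells at d0 had 95%. The d3 value of this stretch therefore cannot be read as replication alone. Without the stretch, the other 952 bins averaged 74.7% at d0, 43.7% at d2 and 42% at d3, against 33.2% at d4, 36.3% at d5 and 29.5% at d6, and 28.9% at d7. Across the 74 regions, the median in G1 cells was over 10% in 5 regions at d3 and 2 at d6, and in 0 regions of the other groups with G1 cells. This stretch was picked out after its values were seen.

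In EpiSC, regions lay at both extremes. chr7:49040001-49840000 had the largest fall in EpiSC and was copied in 0 of 26 EpiSC and in 55 of 59 cells at d0. It was copied in 3 cells (2.97%) at d7. chr8:43760001-45040000 was copied in 0 of 26 EpiSC and 53 of 59 cells at d0, and in 10.9% at d7. chr13:61280001-61760000 was copied in 0 of 26 EpiSC and 51 of 59 cells at d0, and in 2.97% at d7. By contrast, chr16:9120001-9520000 was copied in 22 of 26 EpiSC and 50 of 59 cells at d0, and in 42.6% at d7. Its intervals were 65.1 to 95.6% in EpiSC and 73 to 92.8% at d0, which overlapped almost wholly, and 32.8 to 52.8% at d7. Next to it, chr16:9680001-10080000 was copied in 19 of 26 EpiSC, 50 of 59 cells at d0 and 45.5% at d7. chr7:26880001-27360000 had 13 of 26 in EpiSC and 32 of 59 at d0, and 9.90% at d7. chr9:19280001-19760000 had 9 of 26 in EpiSC and 24 of 59 at d0, and 3 cells at d7.

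The other long regions differed in how late they became. chr1:66320001-67280000 was copied in 57 of 59 cells at d0, 18 of 35 at d2 and 41.6% at d7, and in 19 of 26 EpiSC. chr3:80400001-81360000 was copied in 39 of 59 cells at d0, 6 of 35 at d2 and 9.90% at d7, and in 0 of 26 EpiSC. chr14:99760001-100720000 stayed high for longer, with 57 of 59 at d0, 25 of 35 at d2 and 33.7% at d7, and 10 of 26 in EpiSC. chr16:84240001-85200000 had 58 of 59 at d0, 15 of 35 at d2 and 25.7% at d7, and 2 of 26 in EpiSC. chr17:93280001-94240000 was the lowest of the long regions at d0, with 30 of 59, and had 4 of 35 at d2 and 4.95% at d7.

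The regions sat between neighbours of several kinds. With both 400-kb flanks called in 72 regions, the regions averaged 27.8% at d7 and 76.3% at d0, and their flanks 35.6% at d7 and 61.8% at d0. In 10 regions both flanks had a d0 share under 50%, and 2 of these regions were themselves under 50% at d0. These 10 were longer (median 840 kb) and averaged 66.4% at d0, 34% at d2 and 19% at d7, between flanks at 14.1% at d7 and 25.0% at d0. The chr8 region was among them, with flanks of 11.2% and 15.3% at d0, and so was chr3:80400001-81360000, with flanks of 15.9% and 19.3%. In 35 regions 1 flank was above and 1 below 50%, and the mean share was 73.6% at d0, 36% at d2 and 25.3% at d7. In the remaining 27 both flanks were at 50% or more, and the mean share was 83.6% at d0, 54.6% at d2 and 34.2% at d7. At d2, the share had fallen by at least 30 points in 8 of these 10, 22 of the 35 with 1 flank on each side of 50% and 11 of the 27 with both flanks at 50% or more.

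Across the edges the profile turned over, at d0 and d7 partly by the choice of the bins. At d0 the mean share was 54.5% at a distance of 760 kb outside the edge, 67.1% in the bin just outside and 77.2% in the third bin inside. At d2 the profile was already level to falling, with 47.8%, 45.3% and 40.8% at the same positions. At d7 they had 43.2%, 32.6% and 26.8%. The next bin beyond an end of the 74 regions was a slow-loss bin at 48 ends, another tested bin at 98 and an untested bin at 2. Each of the 98 was lower at d7 than at d0, short of the size limit.

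**Figure D4:**
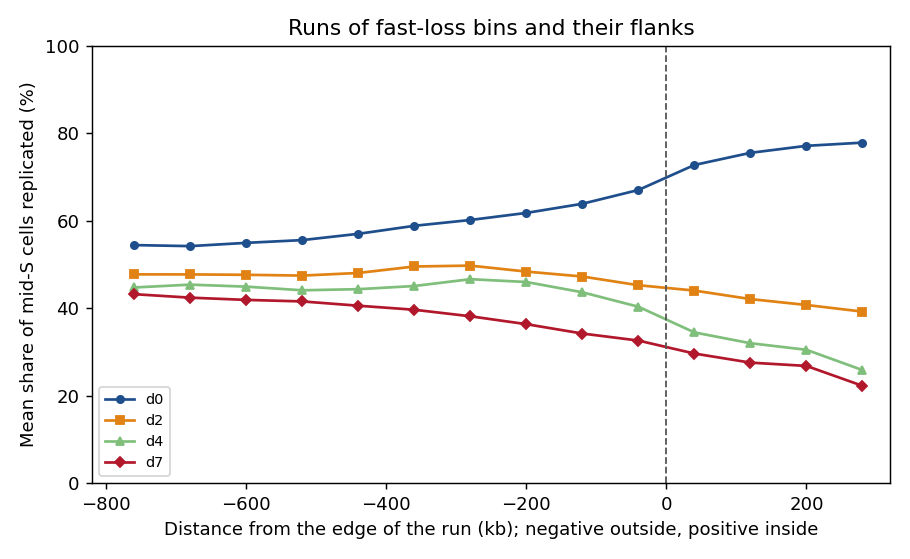
Mean share of mid-S cells that had copied bins at each distance from the edge of the 74 regions, at d0, d2, d4 and d7; negative distances lie outside the region, and the dashed line is the edge. The d7 line goes down towards the inside, to 26.8% in the third bin, and the d0 line goes up, to 77.2%.

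Fast-loss and slow-loss bins often lay in the same run of adjacent losing bins. Whether they belonged to the same replication domain was not tested. Of runs of at least 5 adjacent losing bins of either kind, 59.7% held both kinds, while 35 runs held only fast-loss and 38 only slow-loss bins. These runs held 798 of the fast-loss bins (79.1%). Of the outermost bins of the joined runs, 50.6% were fast-loss, against 44.1% of all losing bins. At 400 kb from the edge this was 34.2%, and at 480 kb or more 36%. Only the longer runs have bins that far from an edge, while all runs have outermost bins. Distance from the edge and length of the run therefore cannot be told apart here, and a change from edge to centre within runs was not tested.

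Within a cell, a region was mostly copied or uncopied as a whole. Among pairs of a cell and a region with at least 3 called bins, at least 80% of the bins were copied in 65.5% of pairs at d0, 25.8% at d2 and 18.1% at d7. At most 20% were copied in 11.9% of pairs at d0, 40.3% at d2 and 63% at d7. Pairs in between were 22.6% at d0, 34% at d2 and 18.9% at d7. The highest share of partly copied regions was thus at d2. The median cell had copied 59 of the 74 regions at d0, 28 at d2 and 25 at d3, with 16 at d4, 18 at d5 and 15 at d6, and 17 at d7 and 24 in EpiSC.

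Position on the genome was not used in the choice. Fast-loss bins made up between 0.269% of tested bins on chromosome 11 (4 bins) and 6.62% on chromosome 12 (96 bins), followed by chromosome 15 with 5.65% and chromosome 17 with 5.49%. Of the 96 on chromosome 12, 57 lay in the stretch at its start described above. The balance of fast-loss to slow-loss bins also varied. On chromosome 12, 70.6% of losing bins were fast-loss, and on chromosome 8 67.1%. On chromosome 13, 3.36% of tested bins were fast-loss and 10.5% slow-loss, so 24.3% of its losing bins were fast-loss. The ends of the chromosomes were taken as 10 Mb from the first tested bin, the side of the centromere, and 10 Mb back from the last. Fast-loss bins were 4.90% of tested bins in the first 10 Mb and 2.44% in the last 10 Mb. Slow-loss bins were 7.94% in the first and 3.17% in the last. Neighbouring bins moved together, so bins are not independent counts here.

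**Figure D5:**
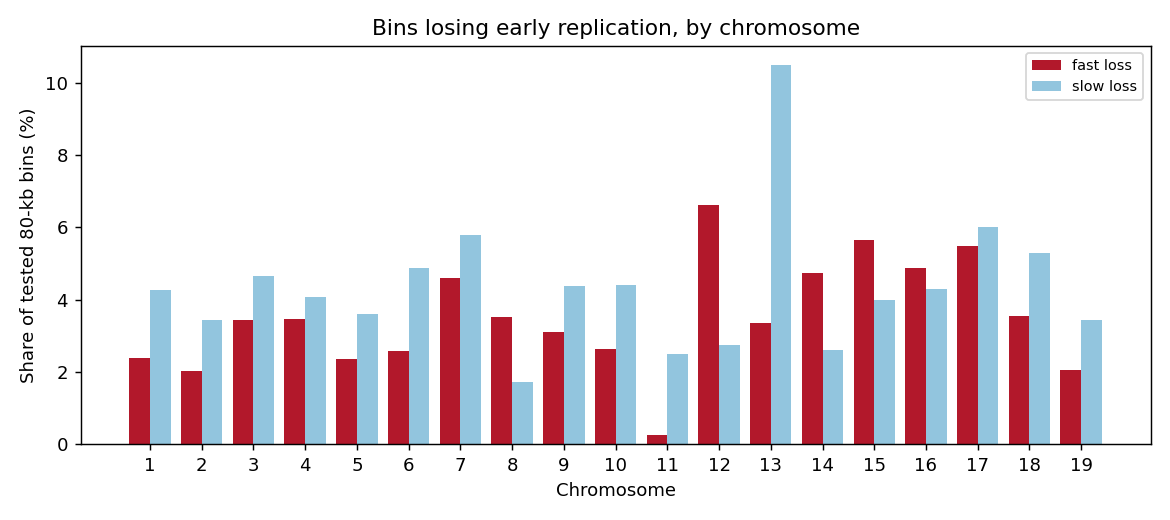
Fast-loss (red) and slow-loss (blue) bins as a percentage of the tested 80-kb bins of each autosome. Chromosome 12 has the most fast-loss bins (6.62%) and chromosome 11 the fewest (0.269%). Of the 96 on chromosome 12, 57 lie in its first 30 Mb.

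Cells sorted from G1 gave the background of replicated calls. Over 72 G1 cells, the fast-loss bins were called replicated at a mean of 1.05% (median 0.20%, highest 8.84%), and all bins at a mean of 1.32%. In the 6 G1 cells of d3, the fast-loss bins had a median of 3.41%, against 0.637% for all bins, part of it in the chromosome 12 bins described above.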

How the data were processed

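Sorting, SeqPlex amplification and sequencing of 80-bp reads were done cell by cell, per the labels' protocols. The submitters' processing notes name the tools Picard, cutadapt and BWA (0.7.10-r789) and the mm9 build. How they were combined is not given in the sources used here. The deposited table holds, per the file headers, 1 score for each cell in each 80-kb bin of the autosomes (chromosomes 1 to 19): 1 where replicated, -1 where not yet replicated and 0 without data. The authors made it against merged G1 cells. The replication score of a cell, the share of its autosomal bins replicated, was deposited by the authors as a fraction and is printed as a percentage. The authors' filter marks for cells were used only in an alternative. Read depth per cell was not used, and bins called per cell stand in for it.

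Groups came from the titles. Shares were computed (Python 3.11.15, scipy 1.17.1, pandas 2.3.3, numpy 2.4.6) over bins called in at least 50% of each group's cells, with exact Clopper-Pearson 95% intervals. Midpoints came from a logistic fit of the calls on the score, with 1% of calls taken as wrong, checked on simulated data. No genome-wide test was possible with 1 sample per group. The regions named were, among runs of at least 5 bins with a share in every group, the 8 longest, and the 4 whose share fell most and the 4 whose share fell least from d0 to d2, and likewise to EpiSC. The bins, lists and named-region rule were chosen with earlier results of these data known. Coordinates are mm9, 1-based. Tables for chromosome X were not used.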

Additional observations from a re-analysis of the deposited data

Results flagged for a closer look

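Among the 7 G1 cells of d4, 1 cell had 0.6993% of fast-loss bins called replicated, against 0% in the rest. It was flagged by a test of the gap between a highest value and its nearest neighbour, applied to 5 groups of G1 cells. With the rest tied at 0%, any higher value in 1 cell would have been flagged. The usual rate of about 1 in 20 groups marked by chance therefore does not hold here. The value was below the mean of 1.05% over the 72 G1 cells.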

How the results depend on the processing

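Of 61 values recomputed under other settings, 53 stayed within the counting interval of the value given (or, for numbers of bins, within 1.5 times). This interval treats a mean share as a count of whole cells and is wide. It ran from -46.1 to -11.6 points for d2 minus d0, and from -15.7 to 4.91 points for d7 minus d0 in early S. Staying inside it is therefore a weak check, and the number 53 does not show that the values are stable. The other 8 were counted as moved, and 0 changed sign. The differences in midpoint given below are among the 8 by rule, and were not compared with the interval. In early S the difference between d7 and d0 (-10.8 points) was -5.11 points as a median over bins, and -4.43 points in the earlier series with 4 d7 cells. The number of fast-loss bins (1009) was 1648 with a limit of 0.2 and 587 with a limit of 0.4 on the difference. Either limit must widen or narrow the set. It was 2866 with d0 and d7 cells of the present series only, and 749 of the 1009 were among these. In that series d0 held 9 cells, of which 3 did not follow the genome-wide order. It was 732 in a window of 45 to 65%, and 1013 with d0 and d7 cells matched in score, of which 807 were shared. With d3 cells alone as the middle group it was 744, of which 674 were shared. Of the 1009, 303 then became slow-loss and 32 were not tested. With d4 cells alone, without the d3 background on chromosome 12, it was 1253, of which 944 were shared, while 65 became slow-loss. The difference between late S cells of d7 and d0 (-24.2 points) was -41.1 points in the earlier series, with 3 d7 and 35 d0 cells. As differences in midpoint, which are on another scale, the falls were -10.3 at d2, -20.4 at d5, -21.7 at d6 and -20.7 in EpiSC, against -29.9, -39.5, -45.5 and -39.7 points of share. No paired analysis was possible because replicate numbers only name cells in accession order and no result comes from a test. The speed condition rests on 13 d3 and 18 d4 cells, and the authors' calls fix the resolution at 80 kb.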
